A study of Mus musculus with 24 samples.

Results

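Voltage-gated and related ion channel genes were described in the tibialis anterior, a muscle of the lower leg, of 8 mice aged 6 weeks. The members were all probes whose platform symbol belonged to the potassium (Kcn), calcium (Cacn), chloride (Clcn), sodium (Scn with a digit), hyperpolarisation-activated cation (Hcn) or transient receptor potential (Trpc, Trpm, Trpv) families, with Kcnj8 and the RNA gene Kcnq1ot1 left out by rule. This gave 184 of 26423 probes, for 156 of 17742 named genes. The members comprised 103 potassium, 33 calcium, 26 TRP, 13 sodium, 6 chloride and 3 Hcn probes. One of them, Trpc4ap, encodes a TRPC-associated protein that is not a channel. All animals were of C57BL6/J;129S1/SvImJ background and carried 1 copy of Myf6 cre, a recombinase driven by a myogenic factor gene of muscle fibres. The 4 controls were Hira flox/+, with 1 floxed and 1 intact allele of the histone chaperone gene Hira. The 4 animals labelled Hira CKO were Hira flox/-, with 1 floxed and 1 null allele. The null allele is present in every cell of these animals, cre-active or not. Total RNA of each animal was hybridised on 3 arrays in 1 colour, so 24 arrays stand for 8 animals, and the animal was the replicate. Values are linear intensities, given per animal as the mean of its 3 arrays.

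Ion channels set the electrical behaviour of the muscle fibre. An action potential carried by the sodium channel Scn4a spreads into the transverse tubules, where the calcium channel complex around Cacna1s senses voltage and triggers calcium release from the sarcoplasmic reticulum. The chloride channel Clcn1 and inwardly rectifying potassium channels stabilise the resting potential, delayed rectifiers end the action potential, and accessory subunits set where and how the pores work.

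The Hira probe was not lower in Hira CKO. Its intensity was 568.5, 472.2, 467.3 and 472.9 in the 4 controls and 613.7, 553.0, 523.7 and 543.1 in the 4 Hira CKO animals, a difference of 0.17 log2 (SE 0.087, limma adjusted p = 0.193). The position of the probe in the gene is not known here, and a probe beyond the floxed exons would check nothing. All directions therefore rest on the group labels. Markers of muscle fibres were bright in every animal: the 6 measured of 10 fixed had control means from 152465 to 275287. Their summed intensity was 1190743 to 1388437 in controls and 1145519 to 1233715 in Hira CKO, and 2 of the 6 fell (Acta1 by 0.55 and Ckm by 0.28 log2, though Ckm did not pass in 6 of the 8 fits with 1 animal removed). Of 8 endothelial markers 4 fell (Pecam1, Kdr, Egfl7 and Emcn), and Pecam1 did not pass in 6 of the 8 fits with 1 animal removed. The 8 markers had a summed intensity of 55390 to 71217 in controls and 41332 to 47149 in Hira CKO. Much of that sum was Egfl7, with a mean of 30882 in controls and 19234 in Hira CKO. Cdh5, Tek, Tie1 and Cldn5 did not pass, and Tek had a difference above 0 (0.11 log2). Of 7 measured smooth muscle and pericyte markers 2 fell (sums of 42995 to 54931 in controls and 34667 to 41192 in Hira CKO). Of 5 lymphocyte markers 3 rose. The sums of the 5 overlapped, at 2148 to 3470 in controls and 3301 to 4894 in Hira CKO. Among these calls, Smtn and Cd4 each did not pass in 2 of the 8 fits with 1 animal removed, and Cd79b in 7. The largest part of the lymphocyte sum was Cd79a, with a mean of 1245 in controls and 2128 in Hira CKO. Cd79a did not pass (limma adjusted p = 0.156). Of 7 measured neuron and axon markers 0 rose and 1 fell (Stmn2, by 0.68 log2), and the sums overlapped, at 2572 to 2870 and 2544 to 3246. Of 6 macrophage markers 1 rose (Itgam, which did not pass in 6 of the 8 fits with 1 animal removed). None of 5 Schwann cell, 6 fibroblast, 5 adipocyte or 3 red blood cell markers passed in limma while 0, 1, 0 and 1 had an unadjusted p under 0.05. For scale, 21.2% of all genes passed in either direction at their brightest probes. The marker lists are small, and their shares were not tested against that value. No measured marker was at 0. In whole muscle, fewer cells of a type and less RNA per cell cannot be told apart.

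Of the 184 ion channel probes, 19 were higher and 7 lower in Hira CKO at a limma adjusted p under 0.05, the threshold meant by "passed" below. Over all 26423 probes 20.6% passed, with 10.5% higher and 10.0% lower. Among the ion channel probes 14.1% passed, with 10.3% higher, near the share over all probes, and 3.8% lower, below it. The median change was 0.03 log2 among the ion channel probes and 0.01 over all probes. A difference above 0 was found at 107 ion channel probes and one below 0 at 77, against 13773 and 12650 of all probes. Differences of at least 1 on the log2 scale of the test were seen at 3 probes, all higher (Trpm1, Kcnk18 and Kcne2), where the ratios of mean intensities were 2.47, 2.03 and 1.8. The 19 probes stood for 18 genes and the 7 probes for 6 genes, and no gene had a probe in each direction. The values of the 4 controls and the 4 Hira CKO animals did not overlap at 22 higher and 7 lower ion channel probes, 29 of 184, where the share over all probes was 24.8%. The count of higher probes was 12 to 20 and that of lower probes 4 to 9 when 1 animal was left out. The lowest count of higher probes, 12, came without control 3, and the lowest count of lower probes, 4, came without control 3, Hira CKO 1 or Hira CKO 2. Single calls also rested on few animals: 14 of the 26 held in all 8 fits that left out 1 animal.

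**Figure D1:**
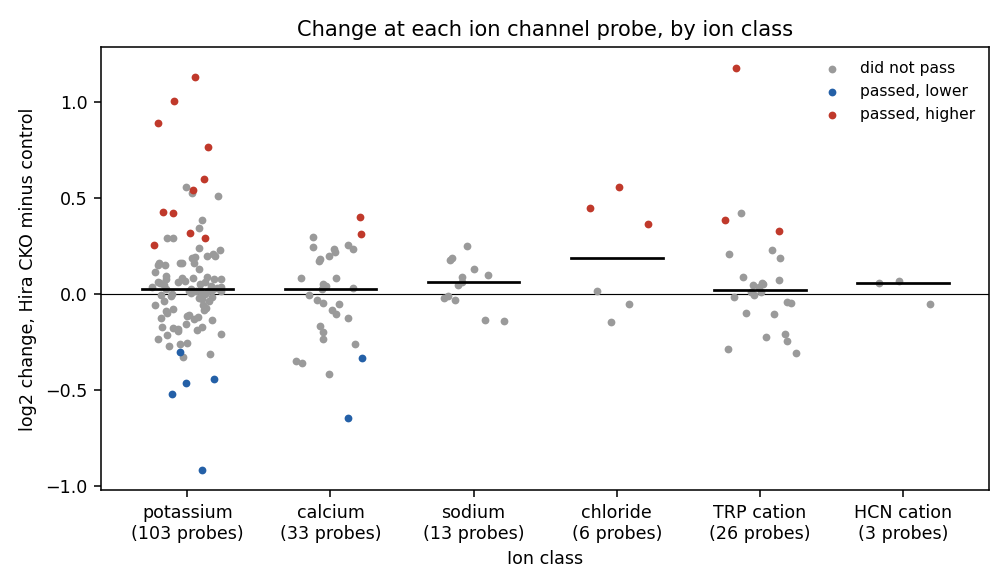
Log2 change (Hira CKO minus control) of each of the 184 ion channel probes, by ion class; each point is a probe, coloured by whether it passed, and the bar is the class median. Passed probes lie on both sides of 0 for potassium and calcium, above 0 only for chloride and TRP, and are lacking for sodium and Hcn.

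By ion, 11 of 103 potassium probes passed higher and 5 lower, and 2 of 33 calcium probes passed in each direction. Of 6 chloride probes 3 passed higher and 0 lower, and of 26 TRP probes 3 passed higher and 0 lower. Of 13 sodium probes and 3 Hcn probes 0 passed in limma and 0 had an unadjusted p under 0.05. By role, 16 of 141 pore probes passed higher (11.3%) and 5 lower (3.55%). Of 42 accessory probes 3 passed higher (7.14%) and 2 lower (4.76%). These classes were small, and their shares were not tested against each other.

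The dihydropyridine receptor, the calcium channel that senses voltage for contraction, passed lower for 1 of its 4 subunits. Cacnb1 encodes the beta subunit, which brings the pore to the membrane. Its probe with the larger change read 10702, 14113, 11002 and 8404 in controls and 7102, 6717, 6071 and 8123 in Hira CKO, so that every Hira CKO animal lay below every control. It fell by 0.64 log2 (SE 0.148, 95% interval −0.97 to −0.31, limma adjusted p = 0.0136), a ratio of means of 0.63, and passed in all 8 fits that left out 1 animal. Its brightest probe read 11984, 13675, 12194 and 10458 in controls and 8918, 9147, 9181 and 11074 in Hira CKO, where the animal at 11074 overlapped the controls. That probe fell by 0.33 log2 (adjusted p = 0.0448), and the call was lost (adjusted p 0.0744 to 0.112) without any of control 1, control 2, control 3, Hira CKO 1, Hira CKO 2 or Hira CKO 3. The remaining, dim probe of Cacnb1 differed by −0.26 log2 and did not pass (adjusted p = 0.105). The fall of Cacnb1 was thus read at both of its bright probes.

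The other subunits of that complex did not pass. The pore gene Cacna1s read 32394, 25440.5, 28006 and 27856 in controls and 27267, 23310.5, 25622 and 25176 in Hira CKO, a difference of −0.17 log2 (95% interval −0.36 to 0.03, adjusted p = 0.204), with overlapping groups. Cacng1, the gamma subunit, read 37723, 26821, 30912 and 24515 in controls and 23050, 17544, 26332 and 23186 in Hira CKO, where 1 Hira CKO animal lay above the lowest control. Its difference was −0.42 log2 (95% interval −0.76 to −0.08, adjusted p = 0.0764), and its adjusted p was 0.0332 when all 24 arrays were fitted with the animal as a random block and 0.0498 without control 4. Cacna2d1, the alpha-2-delta subunit, had the opposite sign at 0.20 log2 (95% interval 0.01 to 0.38, adjusted p = 0.119, and 0.0455 with all 24 arrays fitted), and differed by 0.08 at a second probe.

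**Figure D2:**
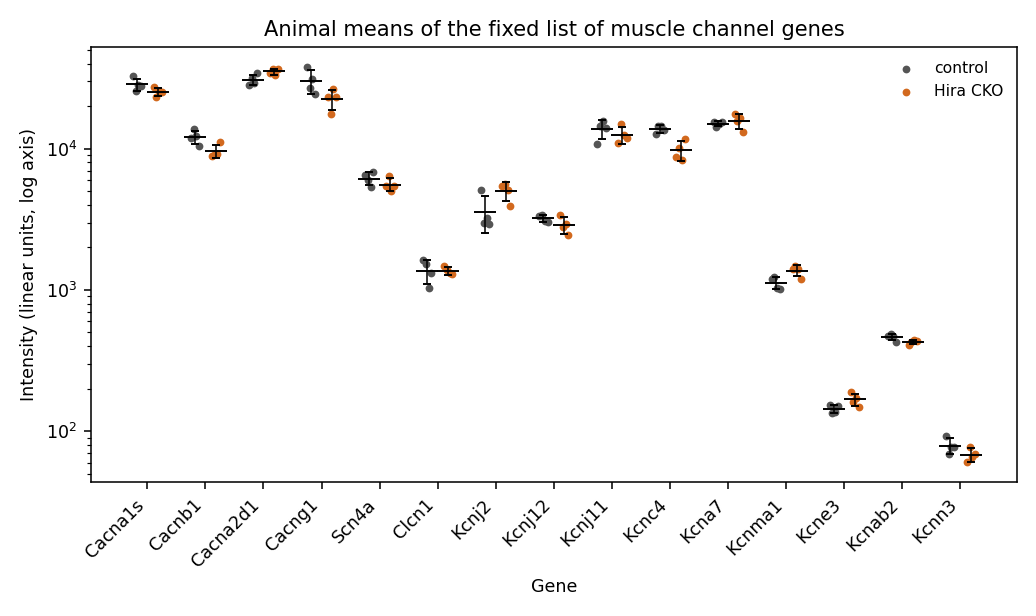
Intensity (log axis) of each control and Hira CKO animal for the genes of the fixed list of muscle channel genes and Kcnn3, each at its probe with the highest mean; points are animal means of 3 arrays and bars are group mean and SD (n = 4). The groups stand apart for Kcnc4 only, and the single control point of Kcnj2 at 5104 lies among the Hira CKO animals.

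Among the other calcium channel genes, Cacna1g, a T-type channel that opens at low voltage, rose. It read 1219, 1194, 1173 and 1177 in controls and 1612, 1513, 1565 and 1509 in Hira CKO, with little spread in either group and no overlap. The rise was 0.40 log2 (SE 0.065, limma adjusted p = 0.00249), a ratio of 1.3. Cacna1h and Cacna1i, the other T-type genes, differed by −0.05 and 0.18 log2 and did not pass. Cacna2d2 rose by 0.31 log2 at 1 probe (adjusted p = 0.0493), with overlapping groups, a call that held only without Hira CKO 4 and had an adjusted p up to 0.127 otherwise. At its other probe the change of 0.23 did not pass (adjusted p = 0.12). All 6 probes of the alpha-2-delta genes had differences above 0, between 0.08 and 0.31 log2, with 1 passed, whereas the beta and gamma subunit probes ran in both directions (−0.64 to 0.30 and −0.42 to 0.24). Of the 10 probes of Cacng genes, grouped as gamma subunits by symbol only, 0 passed in limma. An unadjusted p under 0.05 was found at 4 of them (Cacng1, Cacng2, Cacng3 and Cacng7).

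Sodium channels gave no call. Scn4a, which carries the muscle action potential, read 6514, 5960, 5323 and 6780 in controls and 5477, 6377, 5000.0 and 5426 in Hira CKO, a difference of −0.14 log2 (95% interval −0.37 to 0.09, adjusted p = 0.357). The accessory subunit Scn4b read 36040 to 43289 in controls and 36250 to 42300.5 in Hira CKO and differed by −0.03 log2 (95% interval −0.22 to 0.15). Scn7a, a sodium-sensing relative of the channels, differed by −0.01 log2, with a wide interval of −0.43 to 0.40. Over the 13 sodium probes the change ran from −0.14 to 0.25 log2. Kcnn3, a calcium-activated potassium channel known from denervated fibres, read 69.0 to 92.6 in controls and 60.2 to 77.6 in Hira CKO at its brighter probe, a difference of −0.17 log2 that did not pass (95% interval −0.38 to 0.04).

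Of the chloride genes, Clcn2, Clcn5 and Clcn3 rose, and the muscle channel Clcn1 did not pass. Clcn1 read 1619, 1517, 1029 and 1315 in controls and 1480, 1380, 1316 and 1289 in Hira CKO, a difference of 0.01 log2 (95% interval −0.28 to 0.30). Clcn2, a widely expressed plasma membrane channel, read 240.0, 177.3, 158.1 and 221.7 in controls and 282.2, 301.7, 298.8 and 309.6 in Hira CKO. Every Hira CKO animal lay above the controls, and the rise was 0.56 log2 (SE 0.117, limma adjusted p = 0.00913), a ratio of 1.5. Clcn5, a chloride-proton exchanger of endosomes, read 4505, 6137, 5808 and 6206 in controls and 7385, 8301, 8702 and 6407 in Hira CKO and rose by 0.45 log2 (adjusted p = 0.033). Its call was lost (adjusted p 0.0597 to 0.0862) without any of control 1, control 3, Hira CKO 1, Hira CKO 2 or Hira CKO 3. Clcn3, a relative in the same compartment, rose by 0.36 log2 (adjusted p = 0.0465). Its groups touched: the highest control read 1715 and the lowest Hira CKO animal 1729, but as the mean of log2 values over each animal's 3 arrays, the scale of the test, they overlapped. The call of Clcn3 held only without control 3 or Hira CKO 4, with an adjusted p up to 0.112 otherwise. Clcn6 and Clcn7, at −0.15 and −0.05 log2, did not pass.

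Among pore-forming potassium channel genes of the fixed muscle list, Kcnc4 fell. Kcnc4 encodes a fast voltage-gated channel that is known to pair with the accessory subunit Kcne3 in muscle. It read 12741, 14519, 14404 and 13615 in controls and 8703, 10099.6, 8290.1 and 11735 in Hira CKO, with no overlap. The fall was 0.52 log2 (SE 0.111, 95% interval −0.77 to −0.27, limma adjusted p = 0.00962), a ratio of 0.7, and it passed in all 8 fits that left out 1 animal. Its relative Kcnc1 differed by −0.09 log2 (adjusted p = 0.596), and Kcne3 by 0.20 log2 (95% interval 0.00 to 0.39, adjusted p = 0.14). Kcna7, a Kv channel enriched in muscle and heart, read 14183 to 15474 in controls and 13091 to 17599 in Hira CKO and did not pass (0.06 log2, 95% interval −0.16 to 0.27). Kcnab2, a Kv beta subunit, differed by −0.11 log2 (95% interval −0.27 to 0.04). Of the 14 measured genes of the fixed list, at their brightest probes, 0 rose and 2 fell (Cacnb1 and Kcnc4), 14.3%, against 21.2% of all genes at their brightest probes, with a median of −0.12 log2. The fibre markers Acta1 and Ckm fell in the same animals, and their part in these falls was not tested.

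The 3 promoters that follow belong to genes at which the groups fell, rose and did not pass: Kcnc4, the accessory subunit Kcne4 and Cacna1s. Each is the 250 bases before the RefSeq start of the gene in GRCm38.p6, printed 5′ to 3′ on the gene's strand, and each of these genes has 1 start in the RefSeq table. Capitals mark GGGCGG on either strand (the GC box of Sp-family factors) and CAGCTG, a palindromic form of the E-box bound by myogenic factors; the motifs do not overlap here. Kcnc4 lies at chr3:107458899-107459148 (minus strand), Kcne4 at chr1:78816661-78816910 (plus strand) and Cacna1s at chr1:136052561-136052810 (plus strand).
Kcnc4: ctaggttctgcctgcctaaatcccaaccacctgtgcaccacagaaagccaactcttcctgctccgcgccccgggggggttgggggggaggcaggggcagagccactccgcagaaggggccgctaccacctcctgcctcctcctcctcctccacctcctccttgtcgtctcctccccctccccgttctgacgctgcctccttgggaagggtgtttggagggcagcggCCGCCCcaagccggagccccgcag
Kcne4: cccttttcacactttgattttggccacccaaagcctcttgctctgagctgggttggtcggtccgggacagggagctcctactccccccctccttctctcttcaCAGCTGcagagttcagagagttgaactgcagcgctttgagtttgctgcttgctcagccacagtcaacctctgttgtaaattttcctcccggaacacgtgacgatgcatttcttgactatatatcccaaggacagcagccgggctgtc
Cacna1s: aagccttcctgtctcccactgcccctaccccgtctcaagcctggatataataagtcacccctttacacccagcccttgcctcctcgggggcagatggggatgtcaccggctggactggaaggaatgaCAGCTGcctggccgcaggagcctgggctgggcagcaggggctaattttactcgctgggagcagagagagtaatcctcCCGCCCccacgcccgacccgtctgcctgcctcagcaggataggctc
The Kcnc4 promoter held 1 GC box and 12 CpG, that of Kcne4 1 CAGCTG and 7 CpG, and that of Cacna1s 1 of each motif and 9 CpG. Other forms of the E-box were not counted. RefSeq held 168 such promoters for 125 of the 156 member genes. The GC box was found in 39.3% of them and in 32.7% of all 32851 promoters, and CAGCTG in 22.6% and 13.0%. A TATA box (TATAAA, either strand) was found in 6.55% and 12.4%. The median GC content was 57.0% for members and 52.4% over all promoters. For genes with a higher probe (20 promoters) the shares were 35.0%, 15.0% and 5.0%, and for genes with a lower probe (5 promoters) they were 40.0%, 0.0% and 0.0%. These sets are small, and a match describes letters in this window only.

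Inward rectifiers, which hold the resting potential, gave no call at their bright probes. Kcnj2, the main pore of this current with Kcnj12, read 5104, 2973, 3203 and 2926 in controls and 5420.0, 5617, 5131 and 3950.4 in Hira CKO. Control 1 stood apart from the other controls and overlapped Hira CKO, and the difference of 0.52 log2 (SE 0.181, 95% interval 0.12 to 0.93) had an adjusted p of 0.0669. Without control 1 the difference was 0.71 log2 (adjusted p = 0.00526), and without Hira CKO 4 it was 0.63 (adjusted p = 0.0413). Kcnj2 did not pass without any other single animal. With all 24 arrays fitted, the fit that called more of all probes, the adjusted p of Kcnj2 was 0.004. With array 1 of each animal only it was 0.041. Kcnj12 differed by −0.16 log2 (95% interval −0.39 to 0.07). Kcnj11, the pore of the ATP-sensitive channel, read 10830.4 to 15672 in controls and 10889 to 14822 in Hira CKO at its bright probe, a difference of −0.14 log2 (95% interval −0.43 to 0.16). At a second, dim probe, Kcnj11 read 83.1 to 101.9 in controls and 64.8 to 80.3 in Hira CKO and fell by 0.30 log2 (adjusted p = 0.0281), a call lost (adjusted p 0.0531 to 0.0791) without any of control 2, control 3, control 4, Hira CKO 1 or Hira CKO 2.

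The remaining inward rectifier calls were at dim probes. Kcnj15 read 225.0, 164.9, 193.2 and 196.8 in controls and 155.7, 130.3, 112.3 and 158.9 in Hira CKO, a fall of 0.45 log2 (adjusted p = 0.0276). That call was lost (adjusted p 0.0584 to 0.0713) without any of control 1, control 3, control 4, Hira CKO 2 or Hira CKO 3. Kcnj6, a G-protein-gated channel best known from neurons, rose by 0.29 log2 (adjusted p = 0.0117) at 1 of 4 probes, from 113 ± 2.73 to 142 ± 6.14 (SD, n = 4). Its other probes differed by 0.05, 0.06 and 0.19 log2 and did not pass. The brightest probe of Cacnb1 and the Kcnj15 probe carry probe numbers within a run of 1000 in which 24 of the table's 100 largest falls are found. In all, 18 ion channel probes have numbers in that run, of which 2 passed higher (Kcng1 and Clcn3) and 2 lower, and the part of probe number in these values was not tested.

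Silent Kv subunits, which form no channel alone and modify Kcnb channels, held the largest fall and a large rise. Kcng2 read 685.6, 831.2, 817.9 and 669.6 in controls and 381.4, 392.1, 427.0 and 357.8 in Hira CKO. The groups were far apart, and the fall was 0.92 log2 (SE 0.095, 95% interval −1.13 to −0.71, limma adjusted p = 0.000195), a ratio of 0.52. Kcng4 read 3257, 4552, 4154 and 3748 in controls and 6459, 6769, 7697 and 8154 in Hira CKO, again with no overlap. It rose by 0.89 log2 (SE 0.116, 95% interval 0.63 to 1.14, adjusted p = 0.000719), a ratio of 1.85. Kcng1 rose by 0.26 and Kcnv1 by 0.31 log2, both at dim probes (105 ± 6.82 to 128 ± 8.95 and 23.5 ± 2.44 to 33.8 ± 6.21, SD, n = 4). The call of Kcng1 (adjusted p = 0.0395) held only without control 1, and that of Kcnv1 (0.0441) only without Hira CKO 1, with adjusted p up to 0.11 and 0.115 otherwise. Of 11 probes of this group 3 passed higher and 1 lower (27.3% and 9.09%, against 10.5% and 10.0% of all probes). Kcnb2, a partner of these subunits, differed by 0.16 log2 at a probe of 46.1 in controls and did not pass.

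Of 10 probes of the Kcna family, delayed rectifiers and related Kv channels, 2 passed higher and 1 lower. Kcna6 was the 1 ion channel gene of 21 with several probes at which every probe passed. Its brighter probe read 202.1, 170.6, 156.6 and 157.6 in controls and 225.6, 208.1, 259.6 and 253.1 in Hira CKO, and the dimmer 84.8, 95.7, 90.2 and 97.5 against 129.9, 143.4, 162.5 and 156.0. Every Hira CKO animal was above every control at both probes, which rose by 0.42 (adjusted p = 0.0152) and 0.60 log2 (SE 0.086, adjusted p = 0.00125). Kcna6 is best known from nerve. Of 7 measured neuron and axon markers 0 passed higher and 1 lower (Stmn2), with 2 at an unadjusted p under 0.05, the other being Uchl1 at 0.32 log2 (adjusted p = 0.131). Their part in the Kcna6 value was not tested. Kcna5, a channel of cardiac and vascular muscle, read 243.6, 215.3, 176.1 and 269.8 in controls and 149.7, 160.3, 171.1 and 150 in Hira CKO at its dimmer probe. It fell by 0.47 log2 (adjusted p = 0.0203), a call lost without Hira CKO 1 (adjusted p = 0.0572), and differed by −0.33 at its brighter probe (adjusted p = 0.0827). Smooth muscle and pericyte markers fell at 2 of 7 genes and had lower sums in every Hira CKO animal than in any control, as given above, and their part in the Kcna5 value was not tested.

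Leak channels of the tandem-pore Kcnk family passed at 2 of 13 probes, both higher (15.4%, against 10.5% of all probes). Kcnk3, an acid-sensitive leak channel, read 67.8, 65.2, 57.8 and 68.6 in controls and 156.5, 101.5, 109.9 and 118.9 in Hira CKO. The groups did not overlap, and the rise was 0.76 log2 (SE 0.115, limma adjusted p = 0.00164), a ratio of 1.88 from a dim level. Kcnk18, a calcium-regulated leak channel of sensory neurons, read 92.0, 234.5, 88.5 and 276.3 in controls and 267.3, 381.2, 341.3 and 416.6 in Hira CKO. The controls were split between high and low and overlapped the lowest Hira CKO animal, so the change of 1.13 log2 had a wide error (SE 0.335, adjusted p = 0.0397), and its call held only without control 2 or control 4, with an adjusted p up to 0.0945 otherwise. The brighter Kcnk genes, Kcnk1 at −0.09 and Kcnk2 at 0.01 log2, did not pass. Kcnh5, an ether-a-go-go type channel, rose by 0.42 log2 (adjusted p = 0.025), from 301.8 to 403.9 in controls to 432.2 to 554.9 in Hira CKO. That call was lost (adjusted p 0.0522 to 0.068) without control 3, control 4, Hira CKO 1 or Hira CKO 4.

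Channels opened by calcium or sodium inside the cell, counted with their relative Kcnu1, gave 0 calls at 12 probes in limma. Of these, 2 had an unadjusted p under 0.05, Kcnma1 and Kcnu1. Kcnu1, which is not opened by these ions, differed by 0.55 log2 (adjusted p = 0.0802). Kcnma1, the large-conductance calcium-activated channel, read 1199, 1232, 1028 and 1019 in controls and 1417, 1468, 1412 and 1187 in Hira CKO, with 1 Hira CKO animal among the controls. Its difference was 0.29 log2 (95% interval 0.07 to 0.51, adjusted p = 0.0607), with an adjusted p of 0.0259 without Hira CKO 4. Kcnma1 did not pass without any other single animal. With all 24 arrays fitted, the fit that called more of all probes, the adjusted p of Kcnma1 was 0.00204. Its 4 accessory Kcnmb genes differed by −0.26 to 0.29 log2 and did not pass.

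Among single-span accessory subunits, 2 of 5 Kcne genes rose (40.0%, against 10.5% of all probes). Kcne2 read 857.7, 554.5, 553.3 and 786.2 in controls and 1371, 1211, 1350.2 and 1026 in Hira CKO, and Kcne4 read 637.9, 697.8, 587.4 and 602.0 against 934.2, 831.4, 933.3 and 1000.2. Neither overlapped. Kcne2 rose by 1.00 log2 (SE 0.199, limma adjusted p = 0.00678) and Kcne4 by 0.54 (SE 0.084, adjusted p = 0.00198), ratios of 1.8 and 1.46, and both passed in all 8 fits that left out 1 animal. Kcne1 (0.08 log2), Kcne1l (−0.18) and Kcne3 did not pass. Of 3 Kcnab and 4 Kcnip probes, accessory subunits of Kcna and Kcnd channels, 0 passed in limma, and 1 and 1 had an unadjusted p under 0.05.

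**Figure D3:**
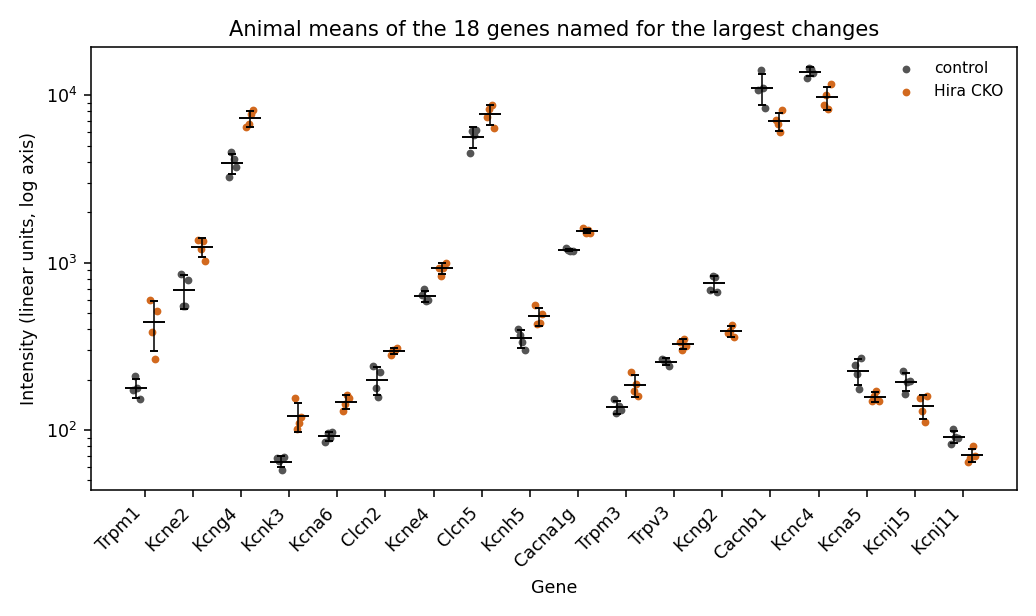
Intensity (log axis) of each control and Hira CKO animal for the 12 genes with the largest rises and the 6 with falls, among passed ion channel probes whose groups did not overlap; points are animal means of 3 arrays and bars are group mean and SD (n = 4). Kcng4 and Kcng2 are among the widest separations, while Trpm1 has a wide spread within Hira CKO.

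TRP channels, which admit cations in response to temperature, lipids or store release, passed higher at 3 of 26 probes (11.5%, near the 10.5% of all probes). Trpm1, known from retinal bipolar cells, read 174.3, 209.7, 178.4 and 154.0 in controls and 601.0, 386.9, 265.2 and 514.2 in Hira CKO at 1 probe, the largest rise among the ion channel probes (1.18 log2, SE 0.212, limma adjusted p = 0.00426). Its second probe, of like brightness, read 213 ± 10.6 and 225 ± 10.2 (SD, n = 4) and differed by 0.07 log2 (adjusted p = 0.494). The rise of Trpm1 was thus read at 1 of its 2 probes. Trpv3, a warmth-sensing channel best known from skin, read 267.4, 262.8, 254.8 and 240.2 in controls and 336.5, 300.1, 350.7 and 317.4 in Hira CKO. It rose by 0.33 log2 (SE 0.074, adjusted p = 0.0126), with no overlap, and passed in all 8 fits that left out 1 animal. Trpm3 rose by 0.38 log2 at 1 of 4 probes (adjusted p = 0.0273), a dim probe at 125.7 to 153.5 in controls and 159.3 to 221.0 in Hira CKO, a call that held only without control 1, Hira CKO 2 or Hira CKO 4. Its brightest probe read 5953 ± 421 and 5911 ± 347 (SD, n = 4) and differed by −0.01 log2.

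The remaining TRP genes did not pass. All 6 Trpc probes had differences below 0, between −0.31 and −0.02 log2, of which 0 passed in limma and 2 had an unadjusted p under 0.05. Trpm7, a channel with a kinase domain, read 2722 to 4086 in controls and 2748 to 4392 in Hira CKO (0.09 log2, 95% interval −0.30 to 0.47). Trpc4ap differed by 0.06 log2 (95% interval −0.10 to 0.21). The Hcn genes, which carry pacemaker current in heart and brain, had intervals near 0: Hcn2 at 0.06 log2 (−0.12 to 0.24), Hcn3 at 0.06 (−0.08 to 0.21) and Hcn4 at −0.05 (−0.24 to 0.14).

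The ion channel probes were dimmer than the array as a whole, with a median control intensity of 198 against 440.0 for all probes. A probe's brightness also depends on its sequence and does not rank genes. In 4 equal bands of all probes by control intensity, split at 125.9, 439.9 and 1736, the members numbered 61, 57, 38 and 28 from dim to bright. Of these 5, 7, 5 and 2 passed higher and 1, 2, 1 and 3 passed lower. The share of members that passed was 9.84%, 15.8%, 15.8% and 17.9%, where 12.9%, 22.1%, 23.8% and 23.4% of all probes in those bands did. Over all probes 7.1%, 12.1%, 12.4% and 10.5% were higher and 5.75%, 10.0%, 11.5% and 12.9% lower. Banding by the control mean itself bears on this split. In bands of the mean over all 8 animals, 5.69% of all probes were higher and 7.31% lower in the dimmest, and 12.2% higher and 11.4% lower in the brightest. In those bands the members passed higher at 4, 8, 4 and 3 probes and lower at 1, 2, 1 and 3, of 62, 55, 38 and 29. In the brightest band by control intensity 18 of 28 members had a difference below 0, against 3581 of 6606 for all probes of that band. The medians were −0.05 and −0.02 log2, and the 3 members passed lower were both bright probes of Cacnb1 and Kcnc4. In the dimmest band 42 of 61 members had a difference above 0, against 3934 of 6606 for all probes there, with medians of 0.06 and 0.04 log2. There were no detection calls, so a dim value can hold background.

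**Figure D4:**
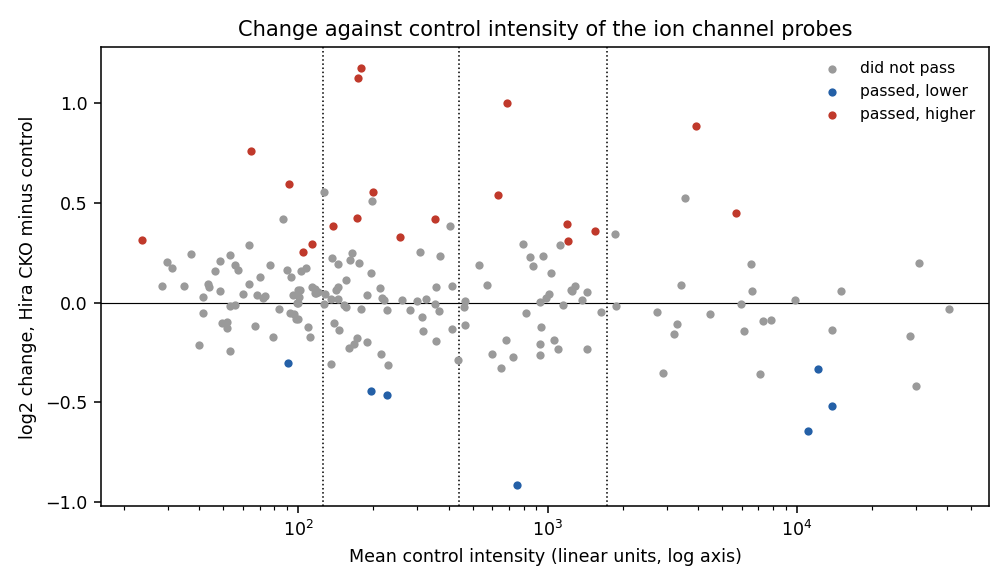
Log2 change (Hira CKO minus control) of the 184 ion channel probes against mean control intensity (log axis); each point is a probe, coloured by whether it passed, and dotted lines mark the 4 bands of all probes at 125.9, 439.9 and 1736. Passed probes occur in all 4 bands, and the 3 brightest of them, at Cacnb1 and Kcnc4, are lower.

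Of the 156 genes, 21 had more than 1 probe, and 8 of these had at least 1 that passed. At 1 of the 8, Kcna6, all probes passed the same way, and at Cacnb1 both bright probes did. For the other 6 (Cacna2d2, Kcna5, Kcnj6, Kcnj11, Trpm1 and Trpm3) the remaining probes did not pass. All probes of a gene had the same sign at 15 of the 21. Most members, 135 genes, had 1 probe, so their values have no second reading on the array.

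**Figure D5:**
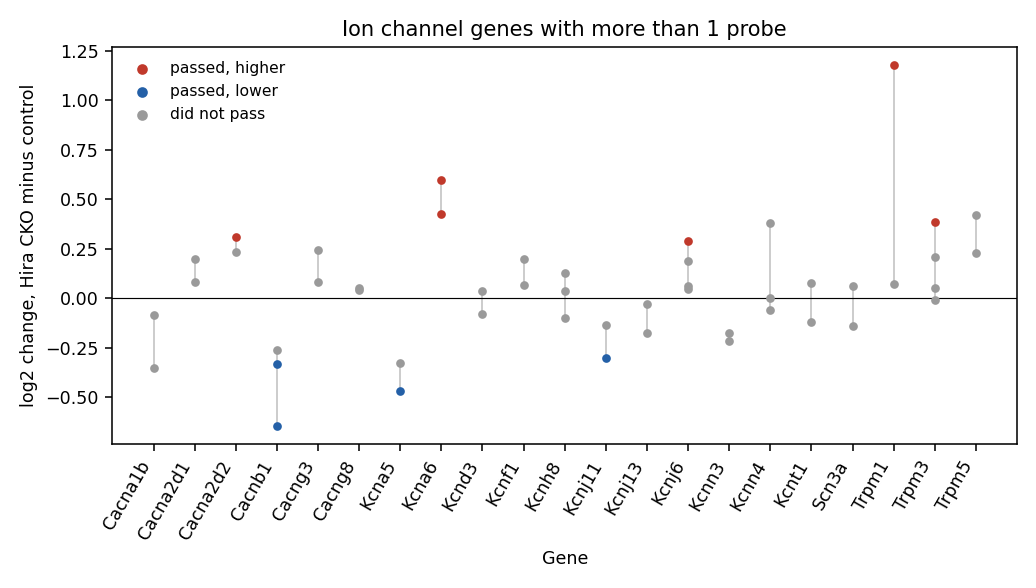
Log2 change (Hira CKO minus control) at every probe of the 21 ion channel genes with more than 1 probe; each point is a probe, coloured by whether it passed, and lines join the probes of a gene. Kcna6 has both probes passed higher, and Trpm1 has 1 probe at 1.18 and another at 0.07.

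Of 30 fixed genes that work beside these channels in calcium release, store refilling and ion pumping, 23 were measured, and 2 rose and 3 fell at their brightest probe (21.7%, against 21.2% of all genes), with a median of −0.06 log2. Stim1, the calcium sensor of the sarcoplasmic reticulum that opens Orai channels, fell from 12751 ± 400 to 8060.2 ± 1050 (SD, n = 4), by 0.67 log2 (limma adjusted p = 0.00121), and by 0.33 at its other probe (adjusted p = 0.0438, not passed in 6 of the 8 fits with 1 animal removed). Orai1, Orai2 and Orai3 differed by −0.07, 0.07 and −0.05 and did not pass. Jph2, which holds the transverse tubule to the sarcoplasmic reticulum, fell from 2703 ± 438 to 1942 ± 98.8, by 0.46 log2 (adjusted p = 0.014), while Jph1 (−0.20) and Stac3 (−0.24), a protein needed for Cacna1s function, did not pass. The endolysosomal channel gene Tpcn1 fell by 0.27 log2 (adjusted p = 0.036), a call that held only without control 3 or Hira CKO 2. Atp2a2, the slow calcium pump, rose by 1.27 log2 (adjusted p = 0.00245) at its brightest probe and differed by 0.21 and 0.47 at its other probes, which did not pass. For the sodium-calcium exchanger Slc8a3 the rise was 0.41 log2 (adjusted p = 0.0185), and without control 3 its adjusted p was 0.0547.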

How the data were processed

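Expression was measured on 24 one-colour (Cy5) arrays of tibialis anterior RNA, extracted with Trizol from frozen muscle per the labels' protocols. The deposited table held linear intensities of 26423 probes, normalized between arrays by the authors, as the file shows: array medians were 431.5 to 433.5 and the highest value was the same on all arrays. Background had evidently been subtracted, since 50 values lay below 0, none at a member probe. The sources used here do not name the scanner or software. No slide, scan date or sex was given, and batch and group cannot be told apart.

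Probes were named from the platform annotation (20377 with 1 symbol, 0 with several, 6046 unnamed), updated through the RefSeq table of GRCm38.p6 (18213 current, 2126 by synonym, 38 kept; 183 and 1 of the members current and by synonym). Values below 0 were set to 0, 16 was added and log2 taken, so fold changes understate dim probes. Arrays of an animal were averaged on the log2 scale, and the animal values entered lmFit and eBayes of limma 3.58.1 (R 4.3.3). Each adjusted p is Benjamini-Hochberg over the whole table of probes, with 0.05 as the threshold. Nothing states that RNA was extracted more than once per animal. On simulated data the fit called 49.3% of the probes changed by 0.5 log2 and 85.1% of those changed by 1 log2, with 10 false calls. Few probes were changed there (67 at each of these sizes), so these shares need not hold for the data.

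Members, gene lists and tests were chosen with earlier results of these data known. Named genes were the fixed muscle list and Kcnn3 at their brightest probes, up to 12 largest rises and falls that passed with no overlap (12 and 6), the 3 genes with the brightest probes per ion class, and up to 4 partner genes that passed. Tpcn1, other probes and other members with values were chosen after their values were seen. Alternatives were other pseudocounts (1 and 50), centring on the 75th percentile, repeated quantile normalization, leaving out the lowest 30% of probes, array 1 only, all arrays with the animal as a random block, a trended and robust variance, the animal number as a block, each animal left out, thresholds of 0.01 and 0.1, a Welch test, genes at their brightest probe, intensity bands by the mean of all animals, and, added after seeing the data, the probe stretch left out. Figures were drawn with matplotlib 3.10.9.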

Additional observations from a re-analysis of the deposited data

Results flagged for a closer look

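In 2 of 90 groups of 4 animals tested over the named probes, 1 animal stood far from the other 3 by Dixon's criterion at 95%, where chance alone gives about 1 in 20. At the brightest Cacnb1 probe, Hira CKO animal 4 read 11073.9, while the other 3 read 8918 to 9181. At the Kcnj2 probe, control animal 1 read 5104.2, while the other 3 controls read 2926 to 3203.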

How the results depend on the processing

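The 19 higher and 7 lower ion channel probes became 12 higher without the lowest 30% of probes, 9 higher with array 1 only, 8 higher and 1 lower with a Welch test, 8 and 2 at a threshold of 0.01, and 29 and 14 at 0.1. With all 24 arrays and the animal as a random block there were 17 lower beside 25 higher, and with genes at their brightest probe 4 lower. Leaving out 1 animal gave 12 to 20 higher and 4 to 9 lower. Deviations of same-numbered animals correlated at 0.296, 0.093, −0.064 and 0.067, so the numbers were not taken as pairs. With the animal number as a replicate block the counts were 18 and 10, with 15 of the 19 higher and 6 of the 7 lower probes shared. The block lost 4 higher calls (Cacna2d2, Clcn3, Kcng1 and Kcnv1, adjusted p 0.0715 to 0.0846) and 1 lower (the brightest Cacnb1 probe, 0.0884). It gained 3 higher (Kcnh2, Kcnj2 and Kcnma1) and 4 lower (Cacng1, Cacng7, Kcnab1 and Trpc6), with adjusted p 0.0195 to 0.0496. Other pseudocounts, both renormalizations, the trended variance and leaving out the probe stretch kept both counts within 1.5 times. In each class, subfamily or marker list of the report where limma called 0, the Welch test called 0 as well. By ion the Welch test called 6 potassium, 2 TRP, 1 calcium and 0 chloride probes. Of the 14 measured genes of the fixed muscle list it called 0, Cacnb1 and Kcnc4 included. None of the 45 named probes reversed sign with a call under any alternative. The causes of these differences were not tested. With 4 animals a group, the median standard error was 0.10 log2 over the ion channel probes and the smallest change that passed was 0.26.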
